A study of Rattus norvegicus with 6 samples.

Results

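Iron and copper handling was followed in rat lateral ventricular choroid plexus through 10 genes: Tf, Tfrc, Fth1, Slc40a1, Slc11a2, Cp, Heph, Atp7a, Atp7b and Slc31a1. They were taken from the array by gene symbol, using probe sets annotated to a single gene, and the brightest such probe set on average stood for each gene. By this rule 8 of the 10 genes could be measured, out of 14217 genes with a probe set of their own. Tf and Fth1 were reached only by probe sets that the annotation also gives to another gene, and these are described apart. The plexuses came from Sprague-Dawley rats with no treatment, at embryonic day 19 (E19), at postnatal day 2 (P2) and in adulthood. By the study's methods the pregnant females were under inhaled isoflurane for the removal of fetuses, and no anaesthetic is named for pups and adults. Each stage was measured in 2 pools, each made from the plexuses of several animals, so that a value is an average over animals. An adult pool held fewer animals than a perinatal pool by the same methods. The adults were male by the study's methods, while the sex of the fetuses and pups was not given in the sources used here, so that stage and sex cannot be told apart. Values are MAS5 signal units scaled to a common trimmed mean on every array, and 100 units were taken as background. A gene is said to have risen or fallen where limma gave an adjusted p under 0.05 over all probe sets tested.

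The choroid plexus forms the barrier between blood and cerebrospinal fluid, and iron and copper cross it through an epithelium that both uses and passes on the metals. Iron bound to transferrin enters cells through the transferrin receptor, is reduced by Steap enzymes in the endosome and leaves it through Slc11a2, the divalent metal transporter. It is then used, stored in ferritin, or exported by ferroportin (Slc40a1) with the help of a copper-containing ferroxidase, ceruloplasmin (Cp) or hephaestin (Heph), which oxidises the iron so that transferrin can bind it. Copper enters through Slc31a1, is carried by the chaperone Atox1 to the copper pumps Atp7a and Atp7b, and is loaded by them into secreted enzymes such as ceruloplasmin or pumped out of the cell. The rat choroid plexus is known as a site of transferrin synthesis within the brain.

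The exporter and the ferroxidase Heph were higher in E19 and P2 plexuses than in adult plexus, Cp was higher at P2 by each of its probe sets and at E19 by its brightest but not its dimmest, and the transferrin receptor and the copper pump Atp7a were lower at both stages. Of the 8 genes measured, Slc40a1, Heph and Cp had risen and Tfrc, Slc11a2, Slc31a1 and Atp7a were lower at E19 than in the adult, against 56.6% of all 10334 genes tested that were called in this comparison (31.4% higher and 25.2% lower). At P2 Slc40a1, Heph and Cp were higher, and Tfrc and Atp7a were lower, against 50.7% of all genes called (28.8% higher and 21.8% lower). Cp was the gene among the 8 that differed between P2 and E19, against 6.17% of all genes (3.61% higher and 2.56% lower). So many genes differed between perinatal and adult plexus that the number of these genes called says little by itself, and their sizes and directions are described below. The median log2 difference of the 8 genes was -0.40 at E19 and -0.10 at P2 relative to the adult, and 0.31 for P2 relative to E19, where the medians of all genes were 0.04, 0.05 and 0.01. The medians of the 8 genes include Atp7b (-1.21, -0.24 and 0.97 in this order), whose values lay near background. Of all genes called, 55.4% at E19 and 56.9% at P2 were higher than in the adult, and 33.3% and 34.3% with each array centred on its median. The calls of Slc40a1, Heph, Cp, Tfrc and Atp7a were kept under that scaling. The median was taken over all probe sets but controls and lay near background. It was 120 to 126 units on the perinatal arrays and 106 and 100.1 units on the adult arrays. Between the pools of a stage the values of 7 genes differed by 0.166 to 27.6%, with a median of 10.2%, and Atp7b was left out because its values lay near background.

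**Figure D1:**
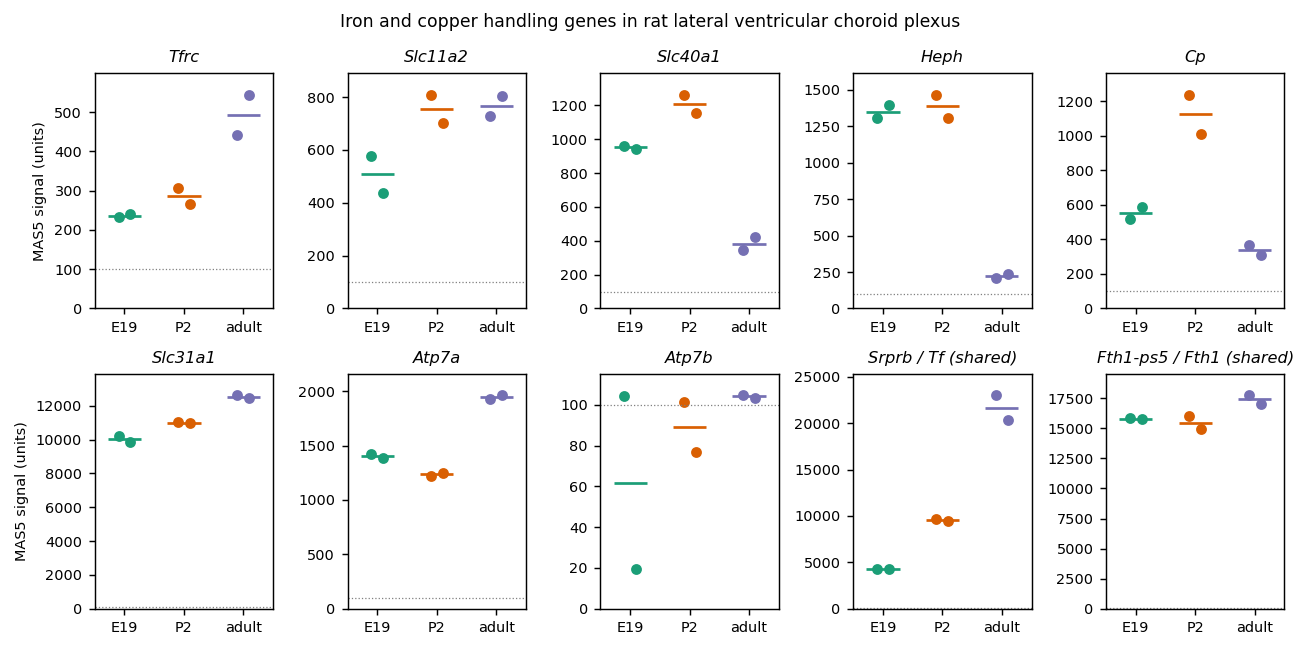
MAS5 signal (units, linear axis from 0) of each gene in each of the 2 pools of E19, P2 and adult plexus, one point a pool, with the mean as a bar and the background of 100 units as a dotted line. Slc40a1, Heph and Cp sit above the adult pools at E19 and P2, Tfrc and Atp7a below them, and the E19 pools of Atp7b lie apart at 104 and 19.3 units.

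The tissue label held for the epithelium, since 8 of the 9 epithelial markers with a probe set of their own were above 100 units on every array, Kcnj13 being the exception, and their summed level was 73827 and 74518 units at E19, 79367 and 75021 units at P2 and 80685 and 74749 units in the adult. Single epithelial markers did differ. Of the 8 tested, Krt8, Otx2 and Krt18 were higher and Enpp2 and Kl lower at E19, where 56.6% of all genes were called. At P2 Krt8 and Krt18 were higher and Enpp2 and Kl lower, where 50.7% were called. Kl read 803 and 832 units at E19 and 829 and 918 units at P2, against 2971 and 2574 units in the adult. The marker levels of other cell types differed by stage as well. Endothelial markers summed to 10928 to 11501 units at E19 and 10478 to 11093 units at P2, against 2120 to 2159 units in the adult, and 9 of 10 were higher at both stages. Fibroblast markers summed to 19014 to 19229 units at E19 and 19626 to 22627 units at P2, against 7025 to 7586 units in the adult, with 5 of 6 higher at both stages. Mural markers summed to 2482 to 2631, 2767 to 2920 and 498 to 570.1 units in the same order, erythroid markers to 21625 to 22116, 18116 to 19384 and 14492 to 14882 units, and cell cycle genes to 10929.8 to 11254, 10067 to 10593 and 4169 to 4214 units. Hbb alone gave 18695 to 18966 of the erythroid units at E19 and 14045 to 14475 in the adult. Macrophage markers summed to 4144 to 4164 units at E19, 5184 to 6671 units at P2 and 8256 to 8341 units in the adult, but Lyz2 alone gave 6018 to 6048 of the adult units, while Mrc1 was at 698 to 794 units at E19, 614 to 964 units at P2 and 25.7 to 39.7 units in the adult. Neuronal markers summed to 297 and 312 units at E19, 443 and 489 units at P2 and 530.2 and 465 units in the adult, with 6 of 8 under 100 units on all arrays and Snap25 lower at both stages. Astrocyte markers summed to 7798 and 7928 units at E19, 8801 and 6414 units at P2 and 4289 and 4093 units in the adult, a sum dominated by Gja1, which was higher at both stages with 5293 to 7141 perinatal units, against 679 and 793 units in the adult. Of the other 4 astrocyte markers tested, Gfap, Aldh1l1, Aqp4 and Aldoc, all 4 were lower at E19 and 2, Aldh1l1 and Aldoc, at P2. Of all genes 25.2% were lower at E19 and 21.8% at P2. In such bulk tissue fewer cells of a type and less RNA per cell cannot be told apart, and the part that these cells had in the values below was not tested.

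**Figure D2:**
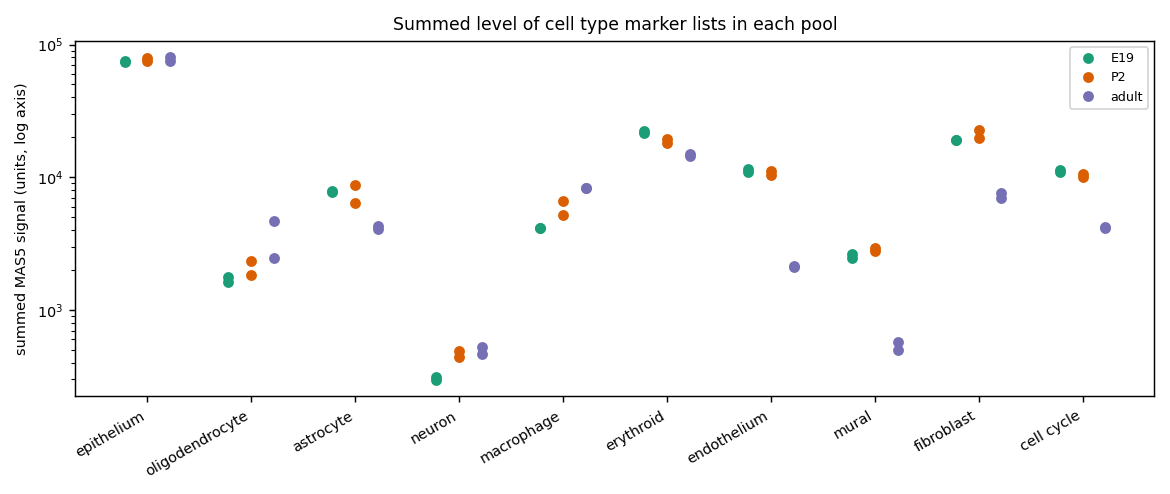
Summed MAS5 signal (units, log axis) of each marker list in each pool, in the order E19, P2 and adult. The epithelial sums of all 6 pools lie between 73827 and 80685 units, whereas the endothelial, mural, fibroblast and cell cycle sums of the adult pools lie below those of all perinatal pools.

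Among the export genes, Slc40a1 encodes ferroportin, the iron exporter of mammalian cells. Its brightest probe set (1390412_at) read 960.9 and 945 units in the E19 pools, 1264 and 1158 units in the P2 pools and 343 and 423 units in the adult pools. Every perinatal pool was above both adult pools. Relative to the adult Slc40a1 rose 2.50-fold at E19, a log2 difference of 1.32 ± 0.13 (SE; adjusted p = 0.0011), and 3.18-fold at P2, a difference of 1.67 ± 0.13 (adjusted p = 0.0007). P2 and E19 differed by 0.34 (95% interval 0.02 to 0.67; adjusted p = 0.166), which did not pass the test. The 2 other probe sets of the gene gave higher values in the perinatal plexus as well. The first (1387130_at) gave a log2 difference from the adult of 2.16 at both stages. It read 629 and 777 units at E19 and 692 and 707 units at P2, and its log2 difference between P2 and E19 was 0.00. The second (1376972_at) read 194 and 204 units at E19 and 198 and 199 units at P2, against 84.8 and 67.2 units in the adult. Both its adult pools were under 100 units, so its fitted differences of 1.40 at E19 and 1.39 at P2 are no measured sizes. Ferroportin is also made by macrophages that recycle red cells. Of 11 macrophage markers tested 3 were higher and 2 lower at E19, with a median log2 difference of 0.01, and 7 were higher and 1 lower at P2, with a median of 0.72. Among all genes 31.4% were higher and 25.2% lower at E19, and 28.8% were higher and 21.8% lower at P2. Which cells the Slc40a1 signal came from was not tested.

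Hephaestin, encoded by Heph, is a ferroxidase anchored in the membrane and best known from the intestine, where it works beside ferroportin. It had the largest difference of the 8 genes. Its probe set (1368533_at) read 1304 and 1396 units at E19, 1467 and 1306 units at P2 and 206 and 234 units in the adult. The perinatal pools overlapped with each other and lay far above the adult pools. E19 exceeded the adult 6.14-fold (log2 2.62, 95% interval 2.33 to 2.91; adjusted p = 0.0001), and P2 exceeded it 6.30-fold (2.66, 2.36 to 2.95; adjusted p = 0.0002). Between P2 and E19 the difference was 0.04, with an interval of -0.25 to 0.33. Leaving out any 1 array kept the log2 difference between 2.52 and 2.71 at E19 and between 2.56 and 2.75 at P2. Heph has no second probe set by which this could be checked. Of the markers tested, 9 of 10 endothelial ones were higher at both stages as Heph was, and so were 8 of 8 cell cycle genes. So were 5 of 6 fibroblast markers (Pdgfra was lower), 3 of 5 mural markers at E19 and 4 of 5 at P2. Of the erythroid markers with a probe set of their own 4 of 4 tested were higher at E19 and 3 of 4 at P2. Hba-a2, read only by probe sets shared with Hba-a1 that ran in both directions, was not counted. Of all genes 31.4% were higher at E19 and 28.8% at P2. Epithelial markers were mixed, with 3 of 8 higher and 2 lower at E19 and 2 higher and 2 lower at P2. Of 5 astrocyte markers 1 was higher and 4 lower at E19, and 1 was higher and 2 lower at P2. The macrophage and neuronal markers are described above and the oligodendrocyte markers, most of them lower, below. Which cells the Heph signal came from was not tested.

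Ceruloplasmin, the multicopper ferroxidase of plasma, also exists in rat as a form held at the cell surface by a lipid anchor, made by splicing. The brightest Cp probe set (1368419_at) read 517 and 586 units at E19, 1238 and 1011 units at P2 and 370.1 and 311 units in the adult, and no pools of different stages overlapped. Cp was thus highest at P2. The P2 level exceeded the adult level 3.30-fold (log2 1.72 ± 0.15; adjusted p = 0.0011) and the E19 level 2.03-fold (1.02 ± 0.15; adjusted p = 0.0318). The E19 level exceeded the adult level 1.62-fold (0.70 ± 0.15; adjusted p = 0.0147), a call that was lost without E19 pool 2 or adult pool 2. A second probe set (1368418_a_at) gave nearly the same values of 429 and 481 units at E19, 927 and 775 units at P2 and 293 and 264 units in the adult. The dimmest (1368420_at) read 101.9 and 99.3 units at E19, 268 and 229.9 units at P2 and 162 and 151 units in the adult. It was again highest at P2, with log2 differences of 0.67 from the adult and 1.30 from E19, but it fell at E19, by 0.64 relative to the adult (adjusted p = 0.0063). The direction of Cp at E19 therefore depended on the probe set, and which splice form each probe set reads was not determined here. The E19 pools of the dimmest probe set lay at the background of 100 units, so that its differences involving E19 are uncertain in size.

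The 250 bases before the annotated start of these 3 genes, all higher at P2 by their brightest probe sets, are printed with those of Tfrc, which ran the other way, to show what the sequence in front of them holds. They are RefSeq sequence of the GRCr8 build, 5′ to 3′, for Slc40a1 chr9:55543461-55543710 (minus strand), Heph chrX:65308806-65309055 (plus strand), Cp chr2:104368420-104368669 (plus strand) and Tfrc chr11:81690319-81690568 (minus strand). Capitals mark a metal response element core (TGCACNC or TGCGCNC), a hypoxia response element core (ACGTG) or a TATA box (TATAAA) on either strand.
Slc40a1: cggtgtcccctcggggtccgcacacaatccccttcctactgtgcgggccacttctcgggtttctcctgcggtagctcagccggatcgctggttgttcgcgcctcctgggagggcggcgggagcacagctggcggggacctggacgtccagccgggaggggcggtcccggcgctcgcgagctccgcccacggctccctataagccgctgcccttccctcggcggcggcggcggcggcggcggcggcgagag
Heph: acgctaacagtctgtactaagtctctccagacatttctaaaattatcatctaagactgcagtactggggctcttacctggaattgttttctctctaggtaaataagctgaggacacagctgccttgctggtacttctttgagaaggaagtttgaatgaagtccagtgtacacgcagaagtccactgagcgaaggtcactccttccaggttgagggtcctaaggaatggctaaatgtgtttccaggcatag
Cp: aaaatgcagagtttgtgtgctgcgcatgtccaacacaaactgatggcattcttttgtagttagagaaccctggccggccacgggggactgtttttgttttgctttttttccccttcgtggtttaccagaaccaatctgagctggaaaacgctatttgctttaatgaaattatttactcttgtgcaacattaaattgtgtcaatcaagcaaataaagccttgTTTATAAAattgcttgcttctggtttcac
Tfrc: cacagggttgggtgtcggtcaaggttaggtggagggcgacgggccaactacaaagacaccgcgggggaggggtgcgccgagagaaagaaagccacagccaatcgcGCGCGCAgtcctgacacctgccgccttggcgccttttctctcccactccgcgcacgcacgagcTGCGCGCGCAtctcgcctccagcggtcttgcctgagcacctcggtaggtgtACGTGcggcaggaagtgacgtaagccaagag
The Slc40a1 and Heph windows held none of these letters. The Cp window held a TATA box at -27 to -22 from the start, overlapped by a match on the other strand at -29 to -24. The Tfrc window held 3 metal response element cores, at -145 to -139, -82 to -76 and -79 to -73, the last pair of which overlap, and a hypoxia response element core at -31 to -27. Among all 33469 such windows of the rat, 20.6% held a metal response element core, 16.6% a hypoxia response element core and 12.9% a TATA box. In the other windows available (9 of the 10 genes had one) Tf held metal response element cores at -128 to -122 and -76 to -70 and a TATA box at -52 to -47, Atp7b a metal response element core at -207 to -201 and Atp7a a TATA box at -232 to -227, while Slc31a1 and both windows of Slc11a2 held no match. A match is a run of letters and not a shown binding site. Slc40a1, Heph and Cp thus shared none of the motifs searched.

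On the uptake side, Tfrc encodes the transferrin receptor, through which most cells take up iron, and its transcript is stabilised when iron is scarce. Its probe set (1388750_at) read 234 and 239.6 units at E19, 306 and 266 units at P2 and 441 and 545 units in the adult. All perinatal pools were below both adult pools. Tfrc was lower by 1.05 on the log2 scale at E19 (a log2 difference of -1.05 ± 0.14; adjusted p = 0.0027), which is 2.07-fold, and lower by 1.72-fold at P2 (-0.78 ± 0.14; adjusted p = 0.0084). Both calls held without any 1 array. P2 exceeded E19 by 0.27, with an interval of -0.08 to 0.62 (adjusted p = 0.271). The other Tfrc probe set (1371113_a_at) stayed under 100 units on all arrays, at 52.4 to 57.0 units in perinatal and 84.9 to 92.3 units in adult plexus, and was not tested.

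Slc11a2, which moves ferrous iron out of endosomes and across the gut wall, read 578 and 438 units at E19, 809 and 703 units at P2 and 727 and 805 units in the adult (1367877_at). The E19 pools were below all others, and the P2 and adult pools overlapped. It was 1.52-fold lower at E19 than in the adult (log2 -0.61 ± 0.17; adjusted p = 0.0296), but the call was lost without E19 pool 2 and without either adult pool, and the second probe set (1388059_a_at), with 471 and 573 units at E19 and 652 and 506 units in the adult, gave -0.15 (adjusted p = 0.495). P2 and adult differed by -0.02 (95% interval -0.45 to 0.40; adjusted p = 0.927). P2 was above E19 by 0.59 (adjusted p = 0.101) by the brighter probe set and below it by 0.33 (adjusted p = 0.274) by the other, so that no order of P2 and E19 was settled.

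**Figure D3:**
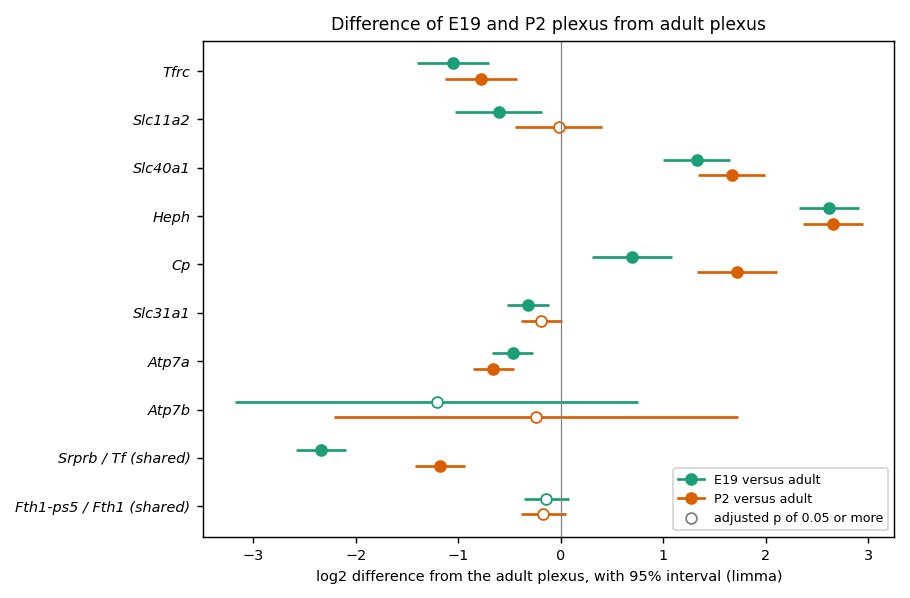
Log2 difference of E19 (green) and P2 (orange) plexus from adult plexus for each gene and for the shared probe sets, with 95% intervals from limma, n = 2 pools a stage. Filled points passed the test. Heph, Slc40a1 and Cp lie to the right of 0 at both stages, Tfrc, Atp7a and the Srprb / Tf probe set to the left, and the interval of Atp7b at E19 runs from -3.18 to 0.76.

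Slc31a1 is the high affinity copper importer of the plasma membrane. Its brightest probe set (1388534_at) read 10195 and 9871 units at E19, 11012 and 10994 units at P2 and 12642 and 12439.8 units in the adult, an order in which no stages overlapped. The steps were small. E19 was 1.25-fold below the adult (log2 -0.32 ± 0.08; adjusted p = 0.0209), a call lost without any 1 of the E19 or adult arrays, and P2 was at -0.19 (95% interval -0.39 to 0.01; adjusted p = 0.104), which passed the test with each array centred on its median (-0.44, adjusted p = 0.012). A dimmer probe set (1368045_at) gave a larger difference, with 2399 and 2313 units at E19 and 2609 and 2878 units at P2 against 5806 and 5416 units in the adult, or -1.25 (adjusted p = 0.0005) and -1.03 (adjusted p = 0.0012) on the log2 scale. Another (1394871_at) gave -0.34 at E19 (adjusted p = 0.0373) and -0.13 at P2 (adjusted p = 0.346), while the last (1368046_at) ran the other way at 0.16 and 0.34, neither of which passed the test (adjusted p = 0.508 and 0.204). The E19 difference from the adult thus ran from -1.25 to 0.16 over the 4 probe sets.

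Atp7a, the copper pump that is mutated in Menkes disease and sends copper on from the plexus and gut, read 1423 and 1388 units at E19, 1222 and 1246 units at P2 and 1931 and 1966 units in the adult (1392536_at). The pools of a stage were close to each other and the stages did not overlap. Atp7a fell 1.39-fold at E19 relative to the adult (log2 -0.47 ± 0.08; adjusted p = 0.0061) and 1.58-fold at P2 (-0.66 ± 0.08; adjusted p = 0.0026), and P2 and E19 differed by -0.19 (-0.39 to 0.01; adjusted p = 0.203). A dimmer probe set (1380395_at, 104 to 191 units) gave -0.09 at E19 and -0.41 at P2, neither past the test, and another (1369342_at) stayed under 100 units.

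Atp7b, the related pump that is mutated in Wilson disease and known best from the liver, was near background. It read 104 and 19.3 units at E19, 102 and 76.7 units at P2 and 105 and 104 units in the adult (1370324_at), and it entered the test only through the adult mean of 104 units. The E19 pools differed so much that the difference from the adult, -1.21, had an interval of -3.18 to 0.76 (adjusted p = 0.235), and P2 was at -0.24 (-2.21 to 1.73; adjusted p = 0.814). Without E19 pool 1 the E19 difference was -2.43 (adjusted p = 0.0044), and without E19 pool 2 it was 0.00. The other probe set (1369123_a_at) was at 6.3 to 49.7 units throughout. No order of the stages can be given for Atp7b.

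**Figure D4:**
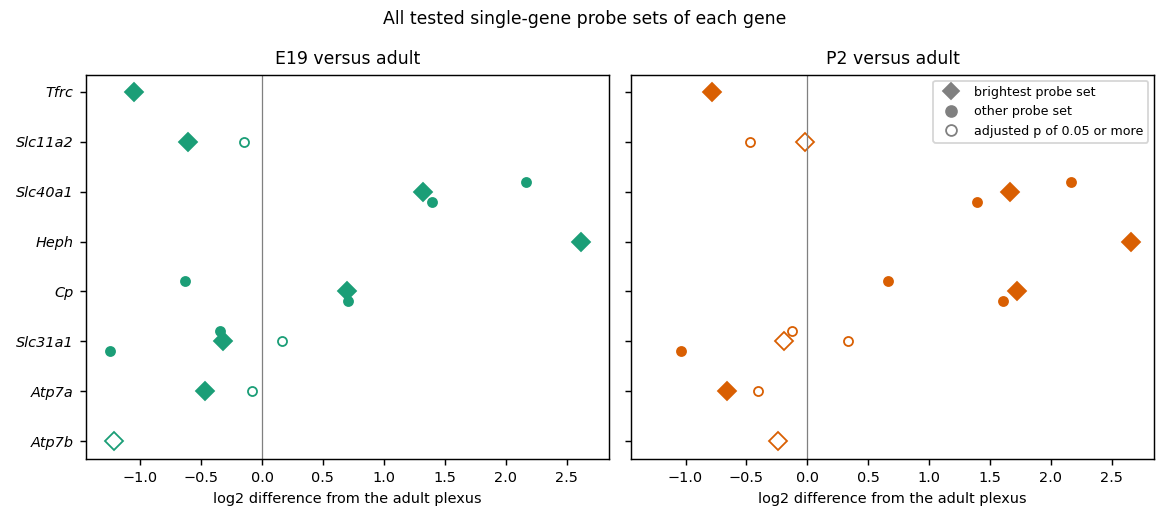
Log2 difference from adult plexus at E19 (left) and P2 (right) for each of the 17 single-gene probe sets tested, the brightest of a gene as a diamond and the others as circles, filled where the adjusted p was under 0.05. The probe sets of Slc40a1 all lie to the right of 0, 1376972_at being fitted against adult pools under 100 units. Those of Cp fall on both sides of 0 at E19, and those of Slc31a1 spread from -1.25 to 0.16 at E19.

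Over the 20 single-gene probe sets of the 8 genes, 17 were bright enough to be tested. Relative to the adult 6 of them rose and 7 fell at E19, where 54.6% of all 17808 probe sets were called (30.4% higher and 24.2% lower), and 7 rose and 3 fell at P2, where 49.2% were (27.4% higher and 21.8% lower). P2 was above E19 in 3, all of Cp, where 7.13% of all probe sets were called (3.62% higher and 3.5% lower). In the plot of all probe sets, Slc40a1 was the gene among those with several tested probe sets for which each of them gave 1 direction with an adjusted p under 0.05 against the adult at both stages. For its probe set 1376972_at both adult pools were under 100 units.

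The transferrin gene could not be separated from Srprb, which encodes a subunit of the signal recognition particle receptor, on this array. The brighter probe set given to both genes (1370228_at) read 4275 and 4270.3 units at E19, 9664 and 9428 units at P2 and 23047 and 20293 units in the adult. The level was lowest at E19 and highest in the adult, with no overlap. Relative to the adult it was 5.06-fold down at E19 (log2 -2.34 ± 0.10; adjusted p = 0.0001) and 2.27-fold down at P2 (-1.18 ± 0.10; adjusted p = 0.0009), and P2 exceeded E19 2.23-fold (1.16 ± 0.10; adjusted p = 0.0163). The dimmer shared probe set (1391323_at) read 5.4 and 15.1 units at E19, 33.4 and 16.2 units at P2 and 359 and 182 units in the adult, so that the perinatal plexus was at least 2.70-fold lower against the background of 100 units. The brightest probe set given to Srprb alone (1390178_at) read 2836 and 2886 units at E19, 2477 and 2902 units at P2 and 3512 and 3518 units in the adult, differences of -0.30 (adjusted p = 0.0628) and -0.39 (adjusted p = 0.031). Another (1382166_at) read 1318 and 1305 units at E19, 1336 and 1440 units at P2 and 1384 and 1414 units in the adult. The dimmest (1378932_at) read 138 and 202 units at E19, 145 and 118 units at P2 and 151 and 190 units in the adult. The shared probe sets thus had larger differences from the adult than the brightest probe set of Srprb, but the signal cannot be assigned to either gene. Oligodendrocytes of the brain also make transferrin, and of the 6 oligodendrocyte markers tested 5 were lower at E19, and 4 were lower and 1, Cldn11, higher at P2. Of all genes 25.2% were lower at E19, and 21.8% were lower and 28.8% higher at P2. The oligodendrocyte markers summed to 1637 to 1780 units at E19, 1845 to 2332 units at P2 and 4662 and 2468 units in the adult pools, where Mbp, the gene of myelin basic protein, had 1989 and 656 units against 5.76 to 77.0 units in the perinatal pools. Which cells the shared signal came from was not tested.

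Ferritin heavy chain, encoded by Fth1, forms the iron storage shell with the light chain and oxidises the iron it takes in. Its probe set, shared with the pseudogene Fth1-ps5 (1367565_a_at), read 15818 and 15750.3 units at E19, 16022 and 14926 units at P2 and 17774 and 17028 units in the adult. E19 and P2 were slightly below the adult, by -0.14 (95% interval -0.36 to 0.08; adjusted p = 0.220) and -0.17 (-0.39 to 0.05; adjusted p = 0.158), which did not pass the test. This depended on the scaling, as centring each array on its median gave -0.42 and -0.43 (adjusted p = 0.012 for both) and quantile normalization gave 0.00 at P2. The array medians used for centring lay near background. The light chain gene Ftl1 was read by a probe set shared with Ftl1-ps14, LOC100362384, LOC100360087 and Ftl1l2, with 13840.1 and 14376 units at E19, 9859 and 9725 units at P2 and 5594 and 6186 units in the adult. This signal exceeded the adult signal 2.40-fold at E19 (log2 1.26; adjusted p = 0.0005) and 1.66-fold at P2 (0.74; adjusted p = 0.0029), and P2 was 0.53 below E19 on the log2 scale (adjusted p = 0.0407). The shared ferritin light chain signal was therefore highest at E19 and lowest in the adult.

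Beyond these genes a list of 69 other genes of iron and copper metabolism was counted, of which 61 had an own probe set and 50 could be tested. Relative to the adult 10 were higher and 17 lower at E19, which is 54.0% of those tested, and 12 and 14 at P2, which is 52.0%, close to the shares of all genes given above. With each array centred on its median these counts were 7 higher and 28 lower at E19 and 9 higher and 22 lower at P2. Between P2 and E19 8 were higher at P2 and 2 lower, 20.0%, where 6.17% of all genes were called. The list had median log2 differences of -0.11 at E19, -0.09 at P2 and 0.14 for P2 relative to E19.

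Of 15 genes of iron uptake and its regulation tested, 4 were higher and 6 lower at E19, and 5 were higher and 4 lower at P2, beside the 56.6% and 50.7% of all genes called at these stages. Slc39a8, a carrier of zinc, manganese and iron, read 279 and 329.95 units at E19 and 245 and 207 units at P2 against 35.2 and 34.0 units in the adult, at least 3.04-fold and 2.26-fold higher against 100 units (adjusted p = 0.0001 and 0.0002). Lrp2, the endocytic receptor megalin, read 1067 and 1001 units at E19, 519.7 and 342 units at P2 and 138 and 145 units in the adult, which is 7.31-fold and 2.98-fold higher than in the adult (adjusted p = 0.0005 and 0.0034). Hfe, the membrane protein mutated in hereditary hemochromatosis in humans, which binds the transferrin receptor, ran the other way with 496 and 471 units at E19, 833 and 834 units at P2 and 1737 and 1717 units in the adult. Hfe was lower by 1.84 at E19 and by 1.05 at P2 on the log2 scale (adjusted p = 0.0001 and 0.0007). Of the Steap family, Steap1 was lower at E19 (2889.6 and 2762 units against 6370.5 and 5901 in the adult, log2 -1.12). Steap2 was lower at E19 (2763 and 2705 units against 5096 and 4957 in the adult, -0.88) and at P2 (2524 and 2983 units, -0.87). Steap4 was higher at P2 (320.4 and 289 units against 83.8 and 99.2 in the adult, at least 3.05-fold). Steap3, the main reductase of red cell precursors, stayed under 100 units on all arrays.

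The iron regulatory proteins, which bind transcripts such as those of Tfrc and ferritin when iron is scarce, differed in opposite directions. Aco1, whose protein is the cytosolic aconitase when iron is ample, read 963 and 937 units at E19, 1250.1 and 956 units at P2 and 1477 and 1691 units in the adult, a difference of -0.73 at E19 and -0.53 at P2 (adjusted p = 0.0132 and 0.0399). Ireb2 read 247 and 225 units at E19, 231 and 219 units at P2 and 169 and 141 units in the adult, a difference of 0.61 at E19 and 0.54 at P2 (adjusted p = 0.0109 and 0.0177). The P2 call of Ireb2 was lost under either other scaling and without P2 pool 1, P2 pool 2 or adult pool 2, and its E19 call without E19 pool 1. The E19 call of Aco1 was lost without E19 pool 1, E19 pool 2 or adult pool 2, and its P2 call without any array but P2 pool 1.

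Of 13 genes of heme and mitochondrial iron tested, 3 were higher and 6 lower at E19 (all genes 56.6% called), and 2 were higher and 5 lower at P2 (50.7%). The 2 isozymes of the first step of heme synthesis ran in opposite directions. Alas1, the isozyme of most tissues, read 340.2 and 271 units at E19, 648 and 605 units at P2 and 1905 and 1728 units in the adult, and was lower by 2.58 at E19 and by 1.53 at P2 on the log2 scale (adjusted p = 0.0002 and 0.0011). Alas2, the isozyme of red cell precursors, read 1179.9 and 999.99 units at E19, 1005 and 1168 units at P2 and 220.004 and 275 units in the adult, and was higher by 2.14 at both stages (adjusted p = 0.0005 and 0.0007). Alas2 also stands on the erythroid marker list, whose 4 tested genes were all higher at E19, 3 of them at P2 as well. Hmox1, the inducible enzyme that frees iron from heme, read 793 and 827 units at E19, 326 and 284 units at P2 and 177 and 121 units in the adult, or 5.53-fold and 2.08-fold higher than in the adult (adjusted p = 0.0006 and 0.0103). Nfs1, the sulfur donor of iron-sulfur clusters, was lower by 1.57 at E19 and by 1.06 at P2, and Lrp1, a receptor for heme bound to hemopexin, was lower by 1.49 at P2 (1551 and 733 units, against 2908 and 3076 units in the adult; adjusted p = 0.0202). The P2 calls of Hmox1 and Lrp1 were lost without P2 pool 1 and without either adult pool, in this order.

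Of 13 genes of copper uptake, chaperones and storage tested, 1 was higher and 3 lower at E19 (all genes 56.6% called), and 2 were higher and 3 lower at P2 (50.7%). Atox1, the chaperone that feeds Atp7a and Atp7b, read 4230.4 and 4233 units at E19, 3971 and 4343 units at P2 and 3956 and 3842 units in the adult, differences of 0.12 and 0.09 that did not pass the test (adjusted p = 0.304 and 0.426) and that changed sign with each array centred on its median. Mt2A, a metallothionein that binds zinc and copper, exceeded the adult level 5.03-fold at E19 and 4.39-fold at P2, with 1248 and 1203 units at E19 and 1022 and 1117 units at P2 against 259 and 229 units in the adult (adjusted p = 0.0001 and 0.0002). Cox17, which brings copper to cytochrome c oxidase in mitochondria, was down 2.57-fold at E19 and 2.14-fold at P2, with 1334 and 1412 units at E19 and 1515 and 1796 units at P2 against 3509 and 3540.1 units in the adult (adjusted p = 0.0007 and 0.0016).

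Of 7 copper enzymes tested, 2 were higher and 2 lower at E19 (all genes 56.6% called), and 3 were higher and 2 lower at P2 (50.7%). Lox, which crosslinks collagen and elastin, read 163 and 112 units at E19 and 151 and 124 units at P2 against 60.9 and 40.4 units in the adult, at least 1.38-fold higher at both stages against 100 units, and neither call was kept with values under 100 units set to 100. Sod3, the secreted superoxide dismutase, read 1442 and 1435 units at E19, 2994 and 4053 units at P2 and 2944 and 3039 units in the adult. It was 2.08-fold lower at E19 than in the adult (adjusted p = 0.0041) and 2.42-fold higher at P2 than at E19 (adjusted p = 0.0236). Lox is made by fibroblasts, of whose 6 markers 5 were higher and 1, Pdgfra, lower at both stages.

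**Figure D5:**
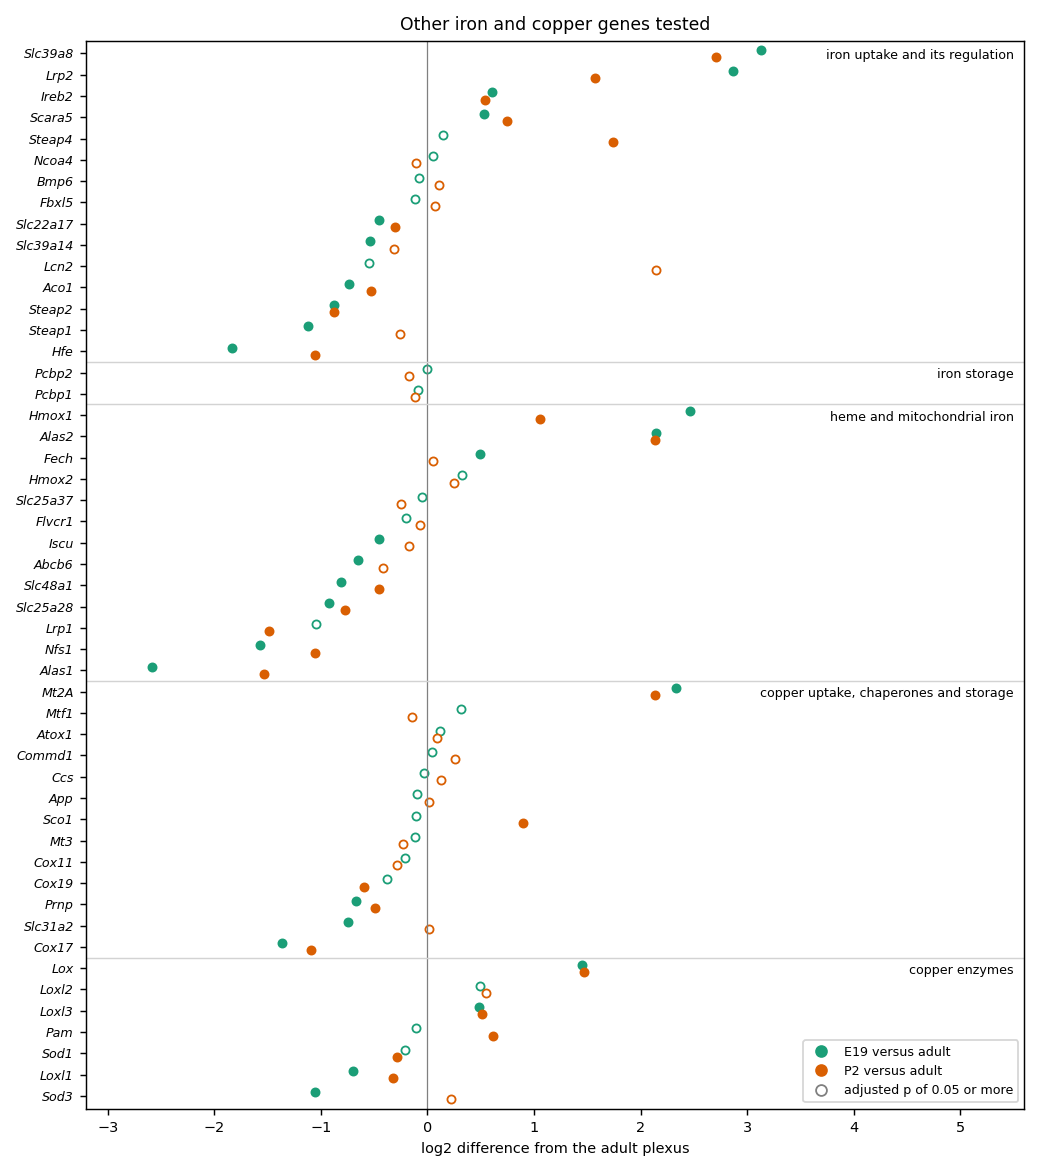
Log2 difference of E19 (green) and P2 (orange) plexus from adult plexus for the 50 other iron and copper genes tested, grouped by role and ordered within a role by the E19 value, filled where the adjusted p was under 0.05. Alas1 lies farthest to the left at -2.58 at E19 and Lrp2 at 2.87 at E19, while the points of Slc39a8, Steap4 and Lox are fitted against adult pools under 100 units, so that their place on the axis is no measured size.

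Between P2 and E19 plexus, 1 of the 8 genes and 10 of the 50 list genes differed, 20.0% of the list against 6.17% of all genes. Besides Cp and the shared Srprb / Tf and ferritin light chain signals, Steap4 (log2 1.59), Sod3 (1.28), Alas1 (1.05), Sco1 (1.00), Steap1 (0.86) and Hfe (0.79) were higher at P2, Sco1 being a copper chaperone of cytochrome c oxidase, and Hmox1 (-1.41) and Lrp2 (-1.29) were lower. Steap4 read 86.6 and 118 units at E19, near background, so that the size of its difference is uncertain. Sco1 read 1132 and 867 units at P2 and 483 and 508 units at E19, against 534 and 534 units in the adult, so that it was high at P2 alone of the stages measured. Every call between P2 and E19 among the 8 genes and the list was lost without any 1 of the E19 or P2 arrays, settings in which the fit called 0 of all genes, or 1 higher and 3 lower without P2 pool 1.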

How the data were processed

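RNA of lateral ventricular choroid plexuses was amplified with a 3′ kit and hybridised to 6 arrays, 2 pools for each of E19, P2 and adult. The authors deposited intensity values that, per the submitters' processing notes, came from MAS5 in Affymetrix Expression Console (versions not given in the sources used here). Each array had been scaled to a trimmed mean near 500 units. The table held 31099 probe sets, 57 of them controls, and 0 columns of values were left unused. Precision is limited by the number of arrays. The annotation gave 20832 probe sets a single gene, 436 several and 9831 none.

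Controls were left out, and the 17808 probe sets whose mean reached 100 units in any stage were tested. limma 3.58.1 under R 4.3.3 was fitted to log2 intensity with 1 mean for each stage over all 6 arrays (3 residual and 2.15 prior degrees of freedom). Benjamini-Hochberg adjustment covered all 17808 probe sets in each comparison. A call is an adjusted p under 0.05. Every p in the text is from this fit or its alternatives. Where both pools of a stage were under 100 units, the fold is a bound against 100 units. Shares over all genes use 1 probe set for each gene, the one with the highest mean. The procedure was tested on simulated data.

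The genes were chosen with earlier results of these data known, as were the pathway and marker lists. From the pathway list the text names, in each comparison, the 6 largest called differences in each direction, and Aco1, Ireb2, Ftl1, Atox1, Hmox1 and Steap3 whatever their result. From the marker lists the brightest genes were to be named, but not all of them are, and sums and counts are given in their place. Srprb, and of the markers Mrc1, Mbp, Kcnj13, Krt8, Krt18, Otx2, Enpp2, Kl, Snap25, Cldn11, Pdgfra and the 5 astrocyte genes, were named after their values were seen. Alternatives changed the filter, the scaling, low values, which arrays were fitted, the variance model, the block and the probe set, and left out each array in turn, where a lone array was taken to vary like the other stages.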

Additional observations from a re-analysis of the deposited data

Results flagged for a closer look

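P2 and E19 plexuses share the adult as their reference, so a difference between their differences from the adult is the difference between P2 and E19 itself, which limma tested. It passed for 13 signals, given here as log2 P2 minus E19. Those higher at P2 were Steap4 (1.59), Sod3 (1.28), the shared Srprb / Tf probe set (1.16), Alas1 (1.05), Cp (1.02), Sco1 (1.00), Steap1 (0.86), Hfe (0.79), Pam (0.73) and Nfs1 (0.52). Those lower at P2 were Hmox1 (-1.41), Lrp2 (-1.29) and the ferritin light chain probe set shared by Ftl1 and 4 other entries (-0.53). Pam, which amidates secreted peptides with the help of copper, read 1612 and 1339.7 units at P2 and 831 and 944 units at E19, against 994 and 923 units in the adult. Cp, Sco1, Pam and Steap4 were above both the E19 and the adult pools at P2, those of Steap4 lying near background. Of the others that were higher at P2, Alas1, Hfe, Nfs1, Steap1 and the shared Srprb / Tf probe set lay at P2 between their E19 and adult levels. With any 1 of the E19 or P2 arrays left out, none of the 13 had an adjusted p under 0.05, and those of Lrp2, Nfs1 and Pam were lost without either adult array and that of the ferritin light chain probe set without adult pool 2. The cause was not tested.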

How the results depend on the processing

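With 2 pools a stage, small differences lie at the limit of the test, and precision is set by the spread between pools. The 3 higher and 2 lower calls among the 8 genes at P2 against the adult kept their direction in every alternative tried, and Slc40a1, Heph and Tfrc kept theirs at both stages. Over all 10334 genes, centring each array on its median moved the median log2 difference by -0.28 at E19 and -0.26 at P2, and turned 3241 higher and 2606 lower genes at E19 into 2087 and 4172, and 2981 and 2255 at P2 into 1966 and 3763. Among single genes and comparisons, 1028 alternative values kept direction and side of the threshold, 108 lost the call, 9 gained it and 17 changed sign.

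Of the 4 genes lower at E19, 2 were left with no filter, and 2 to 4 when an array was left out, the lower value being reached without E19 pool 2 and without either adult pool. The 1 gene higher at P2 than at E19, Cp, became 2 with an intensity trend and robust prior, 0 with no filter, and 0 to 1 when an array was left out. On the pathway list, centring on the median gave 28 lower genes at E19 in place of 17 and 22 at P2 in place of 14. With no filter 6 in place of 10 were higher at E19, 6 were lower at P2, and 0 differed in either direction between P2 and E19, in place of 8 higher and 2 lower. With only the arrays of the 2 stages compared, 8 were lower at P2 than in the adult and 1 at P2 than at E19. When an array was left out, 7 to 10 were lower at P2 than in the adult, 0 to 8 higher and 0 to 1 lower at P2 than at E19.

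The replicate numbers of the labels did not pair the pools: the differences between pool 1 and pool 2 correlated by -0.06 between E19 and P2, -0.04 between E19 and adult and 0.01 between P2 and adult over 17808 probe sets. With the replicate block, the 8 genes had 0 higher calls in place of 1 between P2 and E19 (Cp adjusted p = 0.065), and the pathway list had 9 lower ones in place of 14 at P2 against the adult and 0 higher and 0 lower between P2 and E19, while all genes had 37 higher and 22 lower in place of 373 and 265. The block changed no other count of these lists by more than 1.5 times.

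Signs changed as follows, none of these values passing the test unless stated. The dimmest Cp probe set, whose E19 pools lay at background, gave -0.64 at E19 (adjusted p = 0.0063). Centring turned Atox1 to -0.16 at both stages. For Atp7b, values under 100 units set to 100 gave -0.020 for P2 minus E19, and leaving out an array gave -2.43 (passing without E19 pool 1) to 0.0037 at E19 and -0.24 to 2.19 for P2 minus E19. The shared Fth1 probe set was at 0.00 at P2 and at 0.058 for P2 minus E19 under quantile normalization, and at -0.081 to 0.022 for P2 minus E19 when an array was left out. In the same way Heph was at -0.047 to 0.12 for P2 minus E19, and Slc11a2 at -0.12 to 0.081 at P2. The other Slc11a2 probe set gave -0.33 for P2 minus E19, the Slc31a1 probe set 1368046_at 0.16 at E19 and 0.34 at P2, and the Slc40a1 probe set 1376972_at -0.0037 for P2 minus E19. The cause was not tested for any of these.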

Other observations

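Lcn2, the gene of the siderophore-binding lipocalin that withholds iron from bacteria, was picked after its values were seen. It read 86.0 and 75.2 units at E19, 475 and 569.5 units at P2 and 27.6 and 503 units in the adult. Adult pool 1 was below all other pools, while adult pool 2 was above both E19 pools and P2 pool 1. The P2 pools did not overlap with the E19 pools, and limma gave an adjusted p of 0.252 for P2 against E19 and of 0.227 for P2 against the adult.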
